A study of Homo sapiens with 60 samples.

Results

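Water extracts of Poria Cocos, a wood-decay fungus, and of Panax Ginseng, a root, were compared directly at the same high dose in SW1783, a human astrocytoma cell line. The members were the 3 libraries titled with the high dose of Poria Cocos and the 3 titled with the high dose of Panax Ginseng, 6 of 60 RNA sequencing libraries in the series. Both groups had been treated for 24 h with 500 µg/mL of extract in Leibovitz's L-15 medium with serum, incubated without added CO2. The medium (100 µg/mL) and low (20 µg/mL) doses of both extracts, and the vehicle, had 3 libraries each. The vehicle was 0.1% DMSO per the sample labels, while the series' design text gives 2%. An extract with an IC20 under 500 µg/mL was to be used at that lower concentration, per the design text, and the labels give the full 500 µg/mL for both extracts here. The labels do not say whether the replicates were separate cultures, so the p-values rest on a spread among libraries that may be technical. The study's labels compare each extract with its vehicle; the question asked here was what differs between 2 extracts that both raise TXNIP.

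All these libraries carry the same batch letter, A, in their titles. The sample codes of every poria library begin with 2, those of every ginseng library with 3 and those of the vehicle with A1, and the sources do not say what this number stands for. A difference tied to that number and a difference between the extracts therefore cannot be told apart in the direct comparison. The comparisons with vehicle carry the same limit, because its codes differ from those of both extracts. In them, words such as raised, lowered, rose and fell give the direction from vehicle, not a cause. Some direct values below are therefore joined by a within-set difference. This sets each extract's high dose against its own low dose, which carries the same leading number, and then takes poria minus ginseng. It also removes any effect of the low doses. Because it draws on more groups, its SE is larger, so a missing call there does not show that a difference is absent.

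TXNIP is an alpha-arrestin that binds thioredoxin and promotes the removal of glucose transporters from the cell surface. Its transcription is driven by MondoA, encoded by MLXIP, and its relative ChREBP, encoded by MLXIPL. Both work as partners of MLX and become active when phosphorylated sugars accumulate. ARRDC4 is a close relative of TXNIP under the same control. NRF2 is a transcription factor that KEAP1 keeps low until oxidants or electrophiles modify KEAP1. It then raises genes for glutathione and thioredoxin reduction, quinone removal, heme breakdown, iron storage and NADPH supply. Genes induced by hypoxia, many of them for glycolysis, follow the HIF transcription factors, whose alpha subunits are degraded while oxygen, iron and 2-oxoglutarate allow their hydroxylation. L-15 medium supplies galactose and pyruvate in place of glucose.

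The 250 bases before the start of 4 genes are printed because the results turn on the groups they belong to: TXNIP and ARRDC4 for the response that the extracts share in direction, GCLM for the NRF2 targets, and HSPA5 for the endoplasmic reticulum (ER) chaperones. The sequences are RefSeq's, build GRCh38.p14, 5′ to 3′ on the gene's strand, with capitals for a match on either strand to the motif named after each gene.
TXNIP, chr1:145996580-145996829, minus strand, carbohydrate response element (CACGNG, any 5 bases, CACGNG): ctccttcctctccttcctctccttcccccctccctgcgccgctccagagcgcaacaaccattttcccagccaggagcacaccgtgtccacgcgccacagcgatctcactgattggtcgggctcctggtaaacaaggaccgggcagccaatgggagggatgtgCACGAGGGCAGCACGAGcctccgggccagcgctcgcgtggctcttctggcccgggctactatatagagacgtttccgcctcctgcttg
ARRDC4, chr15:97960453-97960702, plus strand, carbohydrate response element, no match: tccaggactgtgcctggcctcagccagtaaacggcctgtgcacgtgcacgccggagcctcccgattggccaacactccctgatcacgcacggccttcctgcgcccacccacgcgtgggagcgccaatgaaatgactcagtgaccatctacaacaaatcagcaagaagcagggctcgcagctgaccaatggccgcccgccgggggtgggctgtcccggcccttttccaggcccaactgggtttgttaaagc
GCLM, chr1:93909431-93909680, minus strand, core of the antioxidant response element (TGACNNNGC): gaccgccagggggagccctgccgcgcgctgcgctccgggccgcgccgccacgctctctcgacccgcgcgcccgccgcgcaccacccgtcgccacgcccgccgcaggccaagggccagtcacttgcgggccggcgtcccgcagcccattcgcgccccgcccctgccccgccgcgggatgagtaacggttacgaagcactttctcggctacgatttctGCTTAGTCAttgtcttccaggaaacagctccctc
HSPA5, chr9:125241344-125241593, minus strand, ER stress element (CCAAT, any 9 bases, CCACG): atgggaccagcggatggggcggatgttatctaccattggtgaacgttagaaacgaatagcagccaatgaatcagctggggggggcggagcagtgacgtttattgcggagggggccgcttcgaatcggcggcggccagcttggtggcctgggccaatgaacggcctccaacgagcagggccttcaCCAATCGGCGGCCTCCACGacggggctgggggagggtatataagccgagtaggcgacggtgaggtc

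The match in TXNIP began 88 bases before the start, that in GCLM 34 bases and that in HSPA5 66 bases before it. Among 35116 promoters of 300 bases, which run to 50 bases past the start, 0.057% held the carbohydrate response element, 13.3% the antioxidant core and 0.077% the ER stress element. The letters of the carbohydrate response element were chosen after the TXNIP sequence had been read. Of the listed genes with a promoter in the table, 1 of 10 glucose-sensing genes, 4 of 16 NRF2 targets and 6 of 22 ER genes held their motif. A match is a description of letters, and no match says only that these letters are not in the window.

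The 6 libraries held 23.6 to 27.9 M counts, within the 19.45 to 30.87 M of all 60 libraries, and 4.67% to 5.68% of counts lay on the mitochondrial genome. Levels are given as CPM, counts relative to the library's total after scaling by TMM, edgeR's factor for library composition, and they compare libraries for 1 gene, not genes with each other. The astroglial label was checked against its markers: GFAP, S100B, AQP4, ALDH1L1, SLC1A2 and FABP7 lay under 1 CPM in these groups, and FABP7 was at 0 in all 6 libraries, while other markers such as VIM and CD44 made up a summed level of 8255 to 8605 CPM with poria and 8253 to 8393 CPM with ginseng. Of the astroglial, neuronal, oligodendroglial, epithelial, blood and endothelial markers tested, ALDOC, which is also a glycolytic enzyme, was the one that differed. The summed epithelial markers lay at 206 to 208 CPM with poria and 215 to 226 CPM with ginseng, and the summed blood markers at 134 to 147 and 144 to 154 CPM, and their part in the results was not tested. In bulk RNA, fewer cells of a kind and less RNA per cell cannot be told apart.

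The extracts differed in a small set of genes and by small amounts. Of 17919 genes tested, 227 (1.27%) passed an adjusted p of 0.05 (Benjamini-Hochberg) in the quasi-likelihood test of edgeR, here "called". With poria, 123 (0.686%) were higher and 104 (0.58%) lower than with ginseng. The median size of a called difference was 0.29 on the log2 scale, and ALDH3A1 was the single called gene past 2-fold. With poria, 18 of 23 NRF2 targets were higher and 7 of 15 genes induced by hypoxia lower, and of 24 ER chaperones and related genes 17 fell from vehicle with poria and 16 with ginseng, with no called difference between the extracts. Against the same 3 vehicle libraries, poria raised 926 genes (5.17%) and lowered 1148 (6.41%), and ginseng raised 547 (3.05%) and lowered 753 (4.2%); the 2 comparisons share those libraries, so their values are given side by side only. Leaving out 1 of the 6 libraries left 115 to 150 calls in the direct comparison, the fewest without poria replicate 1. The within-set difference called 31 genes (0.173%), 25 higher (0.14%) and 6 lower (0.0335%) with poria. All 31 were also called in the direct comparison, so the other direct calls were not made within sets. Left without ginseng low replicate 1, which stood apart from its group, the within-set difference called 16 genes, and without poria low replicate 2 or replicate 3 it called 19.

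**Figure D1:**
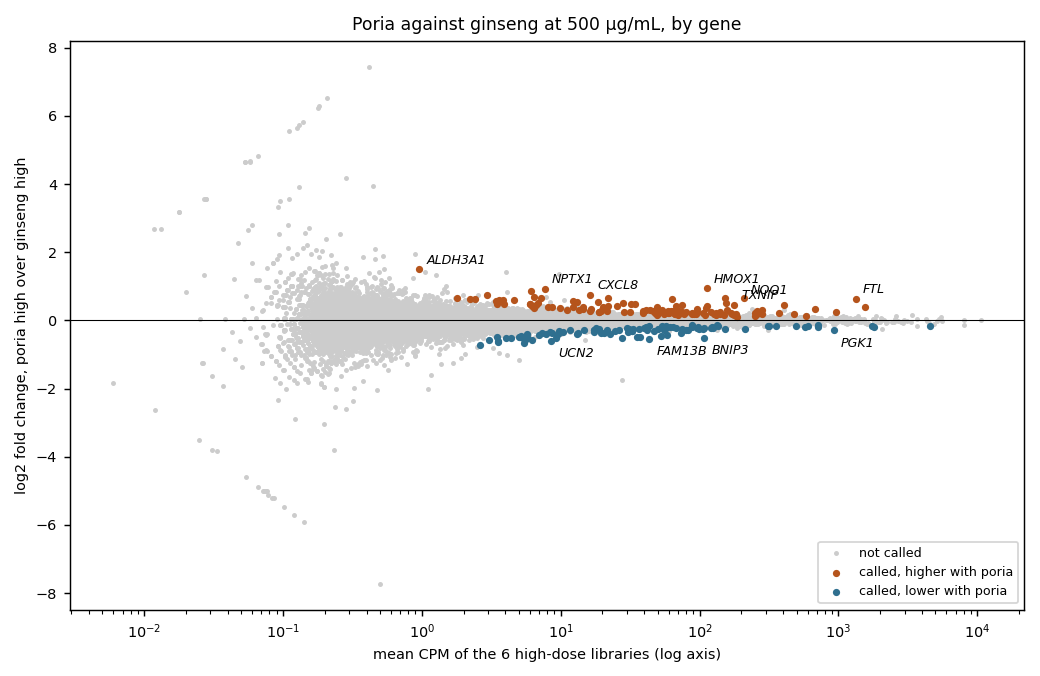
Log2 fold change of poria high over ginseng high (vertical axis) against the mean CPM of the 6 libraries (horizontal log axis), 1 point per gene tested. Coloured points are the 227 called genes, 123 higher with poria in orange and 104 lower in blue; ALDH3A1, HMOX1, NPTX1 and FTL stand at the upper edge of the called genes, and BNIP3, FAM13B and UCN2 at the lower edge.

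TXNIP (ENSG00000265972, chromosome 1, 145992435 to 145996600) lay at 11, 10.7 and 10.3 CPM in the vehicle libraries. It reached 207, 211 and 200 CPM with poria and 149, 153 and 147 CPM with ginseng at the high dose. The 3 poria libraries stood above the 3 ginseng libraries, and both groups stood far above vehicle, by 19.3-fold and 14-fold. The direct difference was 0.46 ± 0.06 (SE) on the log2 scale, 1.38-fold, with an adjusted p of 2.18e-06 by edgeR, and the within-set difference was 0.65 ± 0.12 with an adjusted p of 0.00173. At the medium dose poria gave 27.1, 30.7 and 29.2 CPM and ginseng 17.8, 17.7 and 18.8 CPM, a log2 difference of 0.68 ± 0.08 with an adjusted p of 6.13e-07. At the low dose the levels were 9.41, 10.5 and 10.3 CPM against 10.3, 13 and 11.1 CPM, and the groups overlapped each other and vehicle.

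ARRDC4 (ENSG00000140450, chromosome 15, 97960698 to 97973838) lay at 6.37 to 7.01 CPM with vehicle, at 35.2, 32.6 and 30.9 CPM with poria and at 24.4, 23.4 and 21.6 CPM with ginseng. The high-dose groups did not overlap, and the difference was 0.51 ± 0.08 on the log2 scale with an adjusted p of 1.45e-05 by edgeR. Its within-set difference was 0.46 ± 0.13, with an adjusted p of 0.238, and its medium-dose difference 0.19 ± 0.10, with an adjusted p of 0.823. TXNIP and ARRDC4 were the 2 of 11 tested members of the glucose-sensing list that were called, beside 1.27% of all genes. The list's median difference was 0.06 against -0.002 over all genes. ARRDC3, another alpha-arrestin, rose from vehicle with both extracts, by 0.22 and 0.23 on the log2 scale, and was at 74.9, 79.2 and 75.4 CPM with poria and 71.3, 83 and 76.7 CPM with ginseng. Its 95% interval for the difference ran from -0.12 to 0.09 on the log2 scale. The intervals ran from -0.23 to 0.14 for ARRDC1 and from -0.25 to 0.08 for ARRDC2. MLXIP, which encodes MondoA, had an interval from -0.11 to 0.11 and MLX, its partner, one from -0.04 to 0.15. MLXIPL was listed at 0.293, 0.199 and 0.285 CPM with poria and 0.12, 0.108 and 0.0735 CPM with ginseng, near the floor. Its difference of 1.33 ± 0.655 had a wide 95% interval, from 0.017 to 2.65, and was not called, with an adjusted p of 0.485 by edgeR. KLF10, a repressor that answers carbohydrate and TGF-beta signals, differed by 0.10 ± 0.06 with an adjusted p of 0.688. HBP1 and KLHL24, which rise in quiescent cells, differed by 0.06 ± 0.05 and -0.08 ± 0.07, also not called.

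None of the 16 genes for hexose uptake and the galactose pathway was called, with a median difference of -0.02. SLC2A1, the main glucose transporter of many cultured cells, was at 189, 186 and 186 CPM with poria and 203, 186 and 189 CPM with ginseng. GALK1, which phosphorylates galactose, was at 16, 18.1 and 16.9 CPM with poria and 15.7, 14.3 and 15.5 CPM with ginseng, and its interval ran from -0.02 to 0.35 on the log2 scale. Among the 13 of them that averaged 5 CPM or more, no interval reached beyond -0.33 or 0.35.

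**Figure D2:**
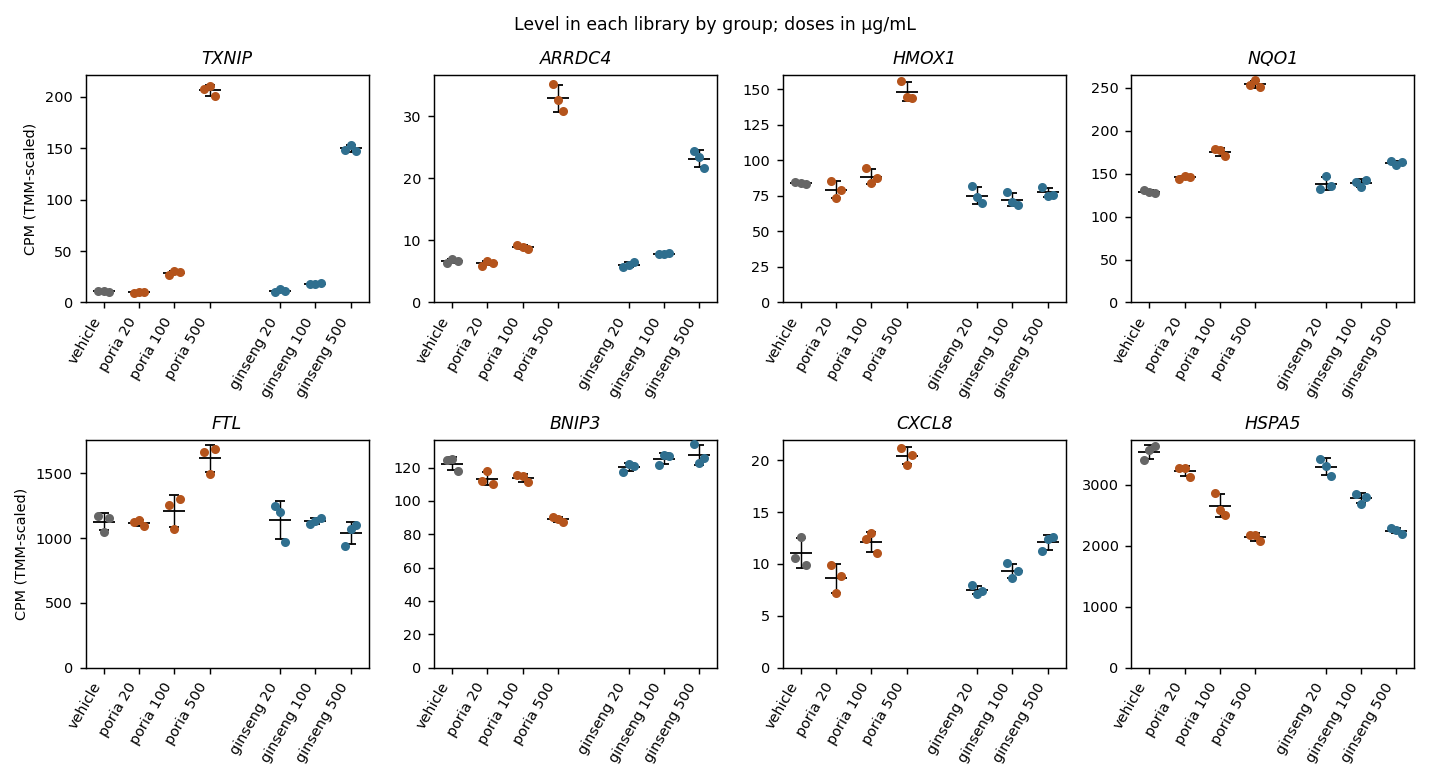
Level (CPM, linear axis from 0) of 8 genes in each library of 7 groups: vehicle in grey, poria in orange and ginseng in blue, each at 20, 100 and 500 µg/mL; points are libraries, and black bars the mean ± SD (n = 3). TXNIP and ARRDC4 are high at 500 µg/mL of both extracts, HMOX1, NQO1, FTL and CXCL8 stand higher with poria, BNIP3 lower with poria, and HSPA5 is low with both.

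Of the 32 gene lists, the NRF2 targets had the largest share of called members. Of 23 tested, 18 were higher with poria, none lower, and all 23 differences were positive, from 0.11 to 0.94 with a median of 0.36. The list's share stands against 0.686% of all genes called higher. The within-set difference called 13 of the 23 higher with poria, beside 0.14% of all genes, and none lower. Poria raised 21 of the 23 over vehicle and ginseng 9, beside 5.17% and 3.05% of all genes. Because earlier results of these data were known when the list was chosen, its count is not independent evidence of its direction.

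HMOX1 (ENSG00000100292, chromosome 22, 35380361 to 35394214), the enzyme that opens the heme ring, had the largest difference among called genes of at least 5 CPM. Its levels were 156, 145 and 144 CPM with poria, 81.1, 75 and 75.8 CPM with ginseng and 85, 83.9 and 83.5 CPM with vehicle. The ginseng libraries thus lay just under vehicle, and the poria libraries 1.76-fold above it on average. The direct difference was 0.94 ± 0.07 with an adjusted p of 2.43e-14 by edgeR, and the within-set difference 0.86 ± 0.10 with an adjusted p of 1.2e-07. At the medium dose the levels were 94.3, 83.8 and 87.1 CPM with poria and 77.6, 70.9 and 68.4 CPM with ginseng, a difference of 0.29 ± 0.07 with an adjusted p of 0.146.

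The iron that heme breakdown frees is stored in ferritin, and both ferritin subunits were higher with poria. FTL, the light chain, was at 1665, 1497 and 1686 CPM with poria, 943, 1074 and 1105 CPM with ginseng and 1171, 1049 and 1159 CPM with vehicle. Its difference was 0.64 ± 0.09 directly and 0.67 ± 0.12 within sets, with adjusted p of 3.65e-06 and 0.00385 by edgeR. FTH1, the heavy chain, was at 1734, 1692 and 1824 CPM with poria and 1328, 1337 and 1352 CPM with ginseng, a difference of 0.39 ± 0.06. Both ferritin genes have many processed pseudogenes, which the authors' counting could share reads with. Of the genes for heme outside the list, picked after their values had been seen, ALAS1, the first enzyme of heme synthesis, was at 85.3, 84.1 and 88.7 CPM against 64.1, 61 and 64.3 CPM. SLC48A1, which carries heme out of endosomes, was at 30.4, 27.2 and 29.8 CPM against 21, 20.5 and 23.2 CPM. Their differences, 0.45 ± 0.04 and 0.43 ± 0.06, were also called within sets, at 0.43 each, and ginseng changed neither against vehicle by a called amount (-0.04 for both).

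NQO1, which reduces quinones, and SLC7A11, the cystine importer that feeds glutathione synthesis, rose from vehicle with both extracts and further with poria. NQO1 was at 131, 129 and 128 CPM with vehicle, 253, 259 and 251 CPM with poria and 164, 160 and 164 CPM with ginseng. Its difference was 0.64 ± 0.05 directly, 0.57 ± 0.07 within sets and 0.33 ± 0.05 at the medium dose, with adjusted p of 7.71e-14, 8.16e-07 and 0.00018 by edgeR. SLC7A11 was at 94.7, 93.8 and 98.4 CPM with vehicle, 185, 193 and 184 CPM with poria and 117, 125 and 117 CPM with ginseng. Its difference was 0.65 ± 0.07 directly and 0.59 ± 0.09 within sets. For both genes the poria, ginseng and vehicle libraries formed separate ranges.

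The enzymes of glutathione synthesis differed less. GCLM, the modifier subunit of glutamate-cysteine ligase, was at 128, 135 and 125 CPM with poria and 98.8, 99.2 and 92.2 CPM with ginseng, a difference of 0.42 ± 0.04 directly and 0.43 ± 0.06 within sets. GCLC, its catalytic subunit, was at 44.9, 46.7 and 46.3 CPM against 37.5, 37.3 and 36 CPM, 0.32 ± 0.05. Glutathione reductase, GSR, was higher by 0.17 ± 0.04 with an adjusted p of 0.00413 by edgeR, and its within-set difference of 0.19 ± 0.05 was not called. In the thioredoxin system, TXNRD1, the reductase, was at 480, 486 and 439 CPM with poria and 358, 334 and 331 CPM with ginseng, 0.46 ± 0.05. SRXN1, which repairs overoxidised peroxiredoxins, differed by 0.35 ± 0.04, and OSGIN1, an oxidative stress-induced growth inhibitor, by 0.53 ± 0.07. TXN, the protein that TXNIP binds, was at 253, 238 and 237 CPM against 210, 205 and 212 CPM, 0.21 ± 0.09, and was not called, with an adjusted p of 0.4. PRDX1, ME1, ABCC2 and AKR1C3 were the other uncalled members, with differences of 0.15, 0.11, 0.51 and 0.35.

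Of the aldo-keto reductases on the list, which reduce reactive carbonyls and steroids, AKR1B10, AKR1C1, AKR1C2 and AKR1C3 each rose from vehicle with both extracts. AKR1B10 was at 3.15, 3.65 and 3.15 CPM with vehicle, 9.87, 8.02 and 8.65 CPM with poria and 5.49, 5.25 and 6.21 CPM with ginseng, and its difference was 0.65 ± 0.10 directly and 0.58 ± 0.15 within sets, the latter not called (adjusted p of 0.167 by edgeR). AKR1C1 was at 40.8, 40.2 and 37.8 CPM with poria and 28, 29.5 and 28.3 CPM with ginseng, 0.47 ± 0.07 directly and 0.46 within sets. AKR1C2 was higher by 0.36 ± 0.09 at the high dose and by 0.57 ± 0.10 at the medium dose. Its high-dose call was lost on leaving out poria replicate 1 or any 1 ginseng replicate, with adjusted p up to 0.193 there. The AKR1C genes are closely related in sequence, so reads may be split among them, and their single values are uncertain.

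Of the 7 pentose phosphate genes, a route that supplies NADPH, 4 were higher with poria, beside 0.686% of all genes, and none lower. These 4 are also on the NRF2 list and are counted in both. PGD, an oxidative step that yields NADPH, was at 289, 283 and 283 CPM with poria and 237, 232 and 231 CPM with ginseng, 0.29 ± 0.04. TKT and TALDO1, the transketolase and transaldolase, differed by 0.33 ± 0.04 and 0.25 ± 0.05. PGD and TKT were called within sets as well, at 0.25 and 0.28. Poria raised the same 4 genes over vehicle, beside 5.17% of all genes, and ginseng raised none of the 7, beside 3.05%.

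**Figure D3:**
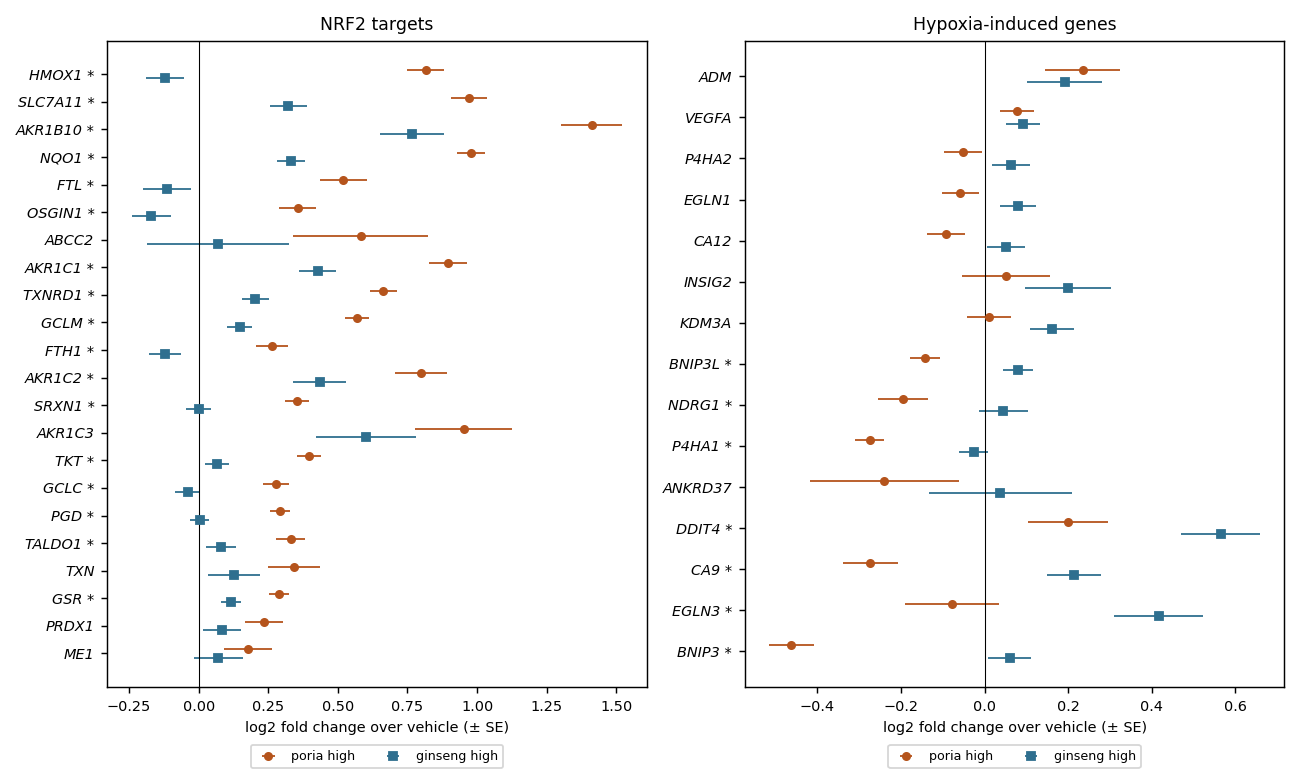
Log2 fold change over vehicle (± SE, edgeR) of 22 of the 23 NRF2 targets (left) and 15 hypoxia-induced genes (right), for poria high (orange circles) and ginseng high (blue squares); genes are ordered by the direct difference, and a star marks a called one. In the left panel every orange point lies to the right of its blue point; in the right panel the starred orange points lie to the left.

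The genes induced by hypoxia went the opposite way. Of 15 tested, 7 were lower with poria than with ginseng (BNIP3, CA9, EGLN3, DDIT4, P4HA1, NDRG1 and BNIP3L), none was higher, and the median difference was -0.22, against 0.58% of all genes called lower. Against vehicle, poria lowered 5, beside 6.41% of all genes, and raised none. Ginseng raised 4, beside 3.05% of all genes, and lowered none. The within-set difference called 1 of the 15, BNIP3, so the other 6 calls rest on the direct comparison. The list's median within sets was -0.19. The direct count fell from 7 to 4 without ginseng replicate 3 or without poria replicate 1, where DDIT4, NDRG1 and EGLN3 were lost.

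BNIP3, a mitochondrial receptor for autophagy, was at 124, 125 and 118 CPM with vehicle, 90.1, 89.1 and 87.4 CPM with poria and 134, 123 and 126 CPM with ginseng. The ginseng libraries overlapped vehicle, and the poria libraries lay under both. The difference was -0.52 ± 0.05 directly and -0.44 ± 0.07 within sets, with adjusted p of 6.99e-10 and 0.000694 by edgeR. CA9, a carbonic anhydrase of the cell surface, was at 34.4, 36.6 and 36.6 CPM with vehicle, 31.1, 28.9 and 29.1 CPM with poria and 43, 40.9 and 40.9 CPM with ginseng. Here the 2 extracts lay on opposite sides of vehicle, and both changes passed the test, at -0.27 ± 0.07 and 0.21 ± 0.06. The direct difference of CA9 was -0.49 ± 0.07, and the within-set one, -0.35 ± 0.09, had an adjusted p of 0.179.

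EGLN3, a prolyl hydroxylase that is itself induced by HIF, was at 4.06, 4.31 and 4.27 CPM with poria and 5.37, 6 and 6.43 CPM with ginseng. With vehicle it was at 4.39, 4.71 and 4.24 CPM, so the ginseng group was the one that stood apart. P4HA1, a collagen prolyl hydroxylase, was at 192, 193 and 194 CPM with poria, 232, 237 and 220 CPM with ginseng and 233, 237 and 231 CPM with vehicle, so there the poria group was apart. DDIT4, an inhibitor of mTORC1 that stress also induces, was at 63, 68.3 and 62.7 CPM with poria and 81.1, 82 and 86.8 CPM with ginseng, above 51.1 to 60.5 CPM with vehicle. Its call, at an adjusted p of 0.0325 by edgeR, was lost on leaving out any 1 of the 6 libraries, with adjusted p up to 0.167. VEGFA and ADM, also classical targets, were close in the 2 groups, at -0.01 ± 0.04 and 0.04 ± 0.09. VEGFA had a 95% interval from -0.10 to 0.07.

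Of 20 genes for glycolysis, 6 were lower with poria, beside 0.58% of all genes, and none higher, with a median of -0.11. PGK1 was at 926, 951 and 944 CPM with vehicle, 848, 821 and 821 CPM with poria and 1039, 1001 and 1016 CPM with ginseng. It differed by -0.30 ± 0.04 with an adjusted p of 3.44e-06 by edgeR, and PGK1 and BNIP3 have processed pseudogenes. PFKFB4, which makes the activator of phosphofructokinase, was at 21.4, 23.5 and 23.9 CPM with poria, 32.7, 31.3 and 34.1 CPM with ginseng and 26.6, 26.4 and 24.4 CPM with vehicle, and differed by -0.51 ± 0.08. ALDOC differed by -0.50 ± 0.11, PDK1, the kinase that closes pyruvate dehydrogenase, by -0.25 ± 0.06, PFKL by -0.17 ± 0.04 and LDHA by -0.16 ± 0.04. The count fell from 6 to 3 without ginseng replicate 1, where ALDOC, LDHA and PFKL were lost, or without poria replicate 1, where LDHA, PDK1 and PFKL were lost. Ginseng replicate 2 (LDHA and PDK1), ginseng replicate 3 (PFKL), poria replicate 2 (LDHA) and poria replicate 3 (PFKL) each ended calls as well. None of the 6 was called within sets, where the list's median was -0.1. The SE was larger there, for PGK1 0.06 against 0.042 directly. The highly expressed steps GAPDH, PKM and ENO1 had differences of -0.08, -0.01 and -0.08 that were not called.

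Most ER chaperones and other genes of the unfolded protein response fell from vehicle with each extract. Poria lowered 17 of 24, where it lowered 6.41% of all genes, and ginseng 16, where it lowered 4.2%, and neither raised any. A smaller shift from vehicle was already present at the low dose. On the log2 scale from the vehicle mean, the library medians of the list were -0.12 to -0.06 with low poria. With low ginseng they were -0.08 to -0.04. At the high dose they were -0.32 to -0.28 with poria and -0.29 to -0.26 with ginseng. Between the extracts none of the 24 was called, the smallest adjusted p was 0.499, and the differences ran from -0.12 to 0.12. Only 5 of the 24 differences were positive. In 5 members all poria libraries lay below all ginseng libraries, and in 0 above, beside 10.07% and 9.236% of all genes. The list was not tested as a set. HSPA5, the main chaperone of the ER lumen, was at 3404, 3560 and 3641 CPM with vehicle, 2182, 2168 and 2073 CPM with poria and 2282, 2256 and 2198 CPM with ginseng. The 2 high-dose groups did not overlap, but their difference of -0.07 ± 0.05 had an adjusted p of 0.74 by edgeR and a 95% interval from -0.18 to 0.04. HERPUD1, which helps to clear misfolded proteins from the ER, was at 124, 128 and 132 CPM with vehicle, 65, 56.7 and 57 CPM with poria and 62.8, 60.7 and 59.5 CPM with ginseng. Its interval ran from -0.28 to 0.22 around -0.04. MANF, a secreted protein of the stressed ER, was at 147, 129 and 148 CPM against 132, 140 and 137 CPM, with vehicle at 207, 216 and 211 CPM. Among the 23 members with a mean of at least 5 CPM, the intervals stayed between -0.28 and 0.32. HSPA5 and HERPUD1 were picked after their values had been seen.

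**Figure D4:**
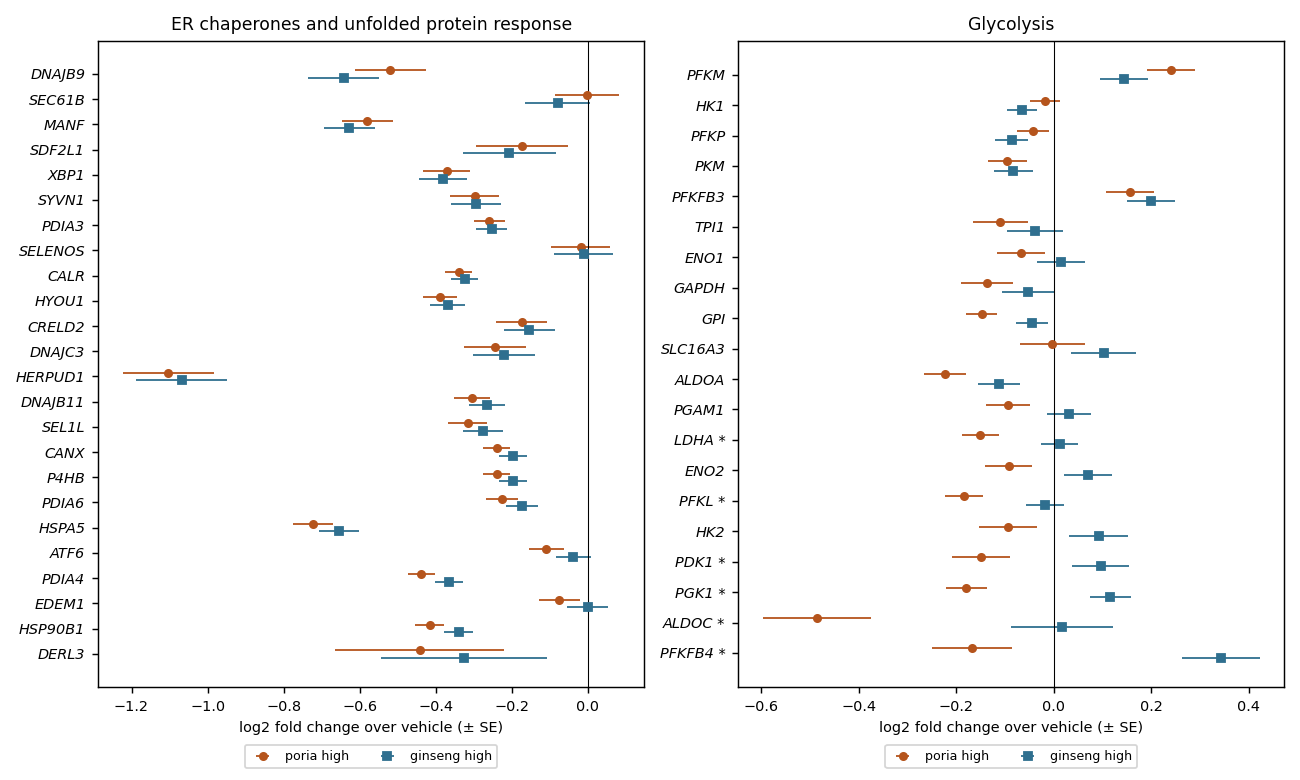
Log2 fold change over vehicle (± SE, edgeR) of 24 ER chaperones and unfolded protein response genes (left) and 20 glycolysis genes (right), for poria high (orange circles) and ginseng high (blue squares), ordered by the direct difference; a star marks a called direct difference. In the left panel the 2 symbols of a gene lie close together, most of them under 0, and no gene is starred; in the right panel the 6 starred genes have poria to the left of ginseng.

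Of 7 tested targets of the aryl hydrocarbon receptor (AhR), which answers planar aromatic ligands, 4 were higher with poria (median 0.42). This stands beside 0.686% of all genes, and none of the 7 was lower. One of the 4 is NQO1, which the NRF2 list also holds. CYP1B1, a monooxygenase, was at 120, 116 and 114 CPM with vehicle, 180, 173 and 166 CPM with poria and 138, 144 and 142 CPM with ginseng, a difference of 0.29 ± 0.06. TIPARP, the receptor's feedback repressor, was at 75.2, 78 and 77.6 CPM with poria and 52.6, 58.6 and 61.5 CPM with ginseng, 0.42 ± 0.07. ALDH3A1, an aldehyde dehydrogenase, was low throughout, at 1.21, 1.48 and 1.57 CPM against 0.561, 0.431 and 0.514 CPM, and was 2.82-fold higher with poria (95% interval of the log2 difference 0.88 to 2.11) with an adjusted p of 0.00257 by edgeR. CYP1A1 was at 1.76, 2.39 and 1.64 CPM against 1.4, 1.62 and 1.43 CPM and was not called. Of the 7, NQO1 alone was called within sets.

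Among 24 tested genes of NF-kB inflammation, 3 were higher with poria, beside 0.686% of all genes, and none lower. All 3 encode secreted cytokines. CXCL8, a chemokine for neutrophils, was at 10.6, 12.6 and 9.91 CPM with vehicle, 21.2, 19.6 and 20.5 CPM with poria and 11.3, 12.4 and 12.6 CPM with ginseng. It differed by 0.76 ± 0.09 with an adjusted p of 1.69e-07 by edgeR, and its within-set difference of 0.54 ± 0.15 had an adjusted p of 0.189. IL1B was at 7.74, 7.74 and 8.3 CPM with poria and 4.81, 4.92 and 4.96 CPM with ginseng, 0.69 ± 0.11 directly and 0.38 ± 0.17 within sets, where the call was lost (adjusted p of 0.927 by edgeR). LIF, of the interleukin-6 family, was at 70.8, 79.2 and 78.5 CPM against 45.1, 50 and 53.5 CPM, 0.62 ± 0.08, and was also called within sets at 0.51 ± 0.12. Of the feedback inhibitors and subunits, NFKBIA differed by 0.03 ± 0.06, NFKB1 by -0.01 ± 0.06 and TNFAIP3 by -0.08 ± 0.08, none called. ICAM1 and CCL2 fell from vehicle with both extracts, ICAM1 by 0.27 with poria and by 0.34 with ginseng on the log2 scale, and did not differ by a called amount.

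Outside these groups, the largest called difference was that of NPTX1, a neuronal pentraxin that clusters glutamate receptors, at 9.82, 10.2 and 10.1 CPM with poria and 4.69, 5.46 and 5.66 CPM with ginseng. It differed by 0.93 ± 0.10 directly and 0.78 ± 0.15 within sets, with adjusted p of 5.28e-09 and 0.00537 by edgeR, and vehicle was at 3.86 to 4.95 CPM. GREM1, a secreted antagonist of bone morphogenetic proteins, was at 26.5, 25.1 and 28.5 CPM against 17.9, 17.9 and 15.5 CPM, 0.64 ± 0.09, also called within sets. KRTAP2-3, a keratin-associated protein with close relatives in a gene cluster, was at 7.61, 7.1 and 9.04 CPM with poria and 4.89, 4.1 and 4.12 CPM with ginseng. Vehicle was at 5.89 to 6.85 CPM, between the 2, and the high-dose change from it passed the test with ginseng alone, at -0.56 ± 0.17. The ginseng means were 4.03 CPM at the low, 4.44 CPM at the medium and 4.37 CPM at the high dose. The decrease thus did not grow with the ginseng dose. The poria means were 4.8, 5.65 and 7.92 CPM, so low poria also lay under vehicle. The low-dose differences from vehicle were not tested. The direct difference of KRTAP2-3 was 0.86, and the within-set one, 0.61 ± 0.25, was not called, with an adjusted p of 0.861 by edgeR. EPGN, a ligand of the epidermal growth factor receptor, differed by 0.60 ± 0.15, a call that was lost on leaving out poria replicate 1 or 2 or ginseng replicate 1 or 3. Of the hyaluronan and plasminogen genes, 2 of 12 were higher and 1 lower with poria, beside 0.686% and 0.58% of all genes. F3, tissue factor, was at 169, 189 and 188 CPM with poria and 123, 130 and 133 CPM with ginseng, around 149 to 155 CPM with vehicle. F3 rose by 0.25 with poria and fell by 0.25 with ginseng against vehicle, and both changes passed the test. The within-set differences of F3 and THBD, 0.42 and 0.50, were not called, with adjusted p of 0.0747 and 0.167 by edgeR. THBD, thrombomodulin, differed by 0.54 ± 0.09 and PLAT, tissue plasminogen activator, by -0.16 ± 0.04, the last lost on leaving out ginseng replicate 2.

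Among the genes lower with poria was UCN2, a peptide of the corticotropin-releasing factor family. It was at 6.48, 7.42 and 6.55 CPM with poria, 10, 9.2 and 11.6 CPM with ginseng and 8.48 to 9.38 CPM with vehicle. Its difference was -0.59 ± 0.10, with an adjusted p of 0.000139 by edgeR. PADI2, which turns arginine in proteins into citrulline, differed by -0.56 ± 0.10. Within sets UCN2 and PADI2 differed by -0.48 and -0.44, neither called, with adjusted p of 0.318 and 0.47 by edgeR. FAM13B was at 71.1, 68.3 and 70.9 CPM with vehicle, 34.6, 35.9 and 36 CPM with poria and 54.2, 51.9 and 49 CPM with ginseng. Both extracts lowered it and poria lowered it further, by -0.54 ± 0.06 directly and -0.55 ± 0.08 within sets. The long noncoding RNA LINC00973 showed the same order, at 48.9 to 53.1 CPM with vehicle, 29.9 to 32 CPM with poria and 41.4 to 45 CPM with ginseng. NEFL, the light neurofilament chain, was at 5.52, 4.19 and 4.2 CPM with poria and 6.17, 6.9 and 6.95 CPM with ginseng, -0.53 ± 0.11. SELENOW, a small selenoprotein, was at 55.9, 47.1 and 46.2 CPM against 66.3, 66.7 and 67.3 CPM, -0.43 ± 0.07. FAM13B, LINC00973, NEFL and SELENOW were all called within sets. PPFIA4, at -0.53 ± 0.12, SPAG4, at -0.52 ± 0.13, FAM13C, at -0.51 ± 0.12, and HTR2A, a serotonin receptor, at -0.50 ± 0.12, each lost the call on leaving out 1 of several libraries, with adjusted p up to 0.297.

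Further lists gave a few called members each, beside 0.686% of all genes called higher and 0.58% called lower with poria. The glucocorticoid response had 2 of 10 higher with poria, SGK1, a kinase, at 0.26 ± 0.05, also called within sets, and KLF9, a transcription factor, at 0.26 ± 0.06, lost on leaving out ginseng replicate 1. The FOXO list had 2 of 21 higher, TXNIP and IGFBP1. IGFBP1, which binds insulin-like growth factors outside the cell, was at 21.7, 22.5 and 20.6 CPM with vehicle, 40.3, 36.6 and 35.8 CPM with poria and 27.8, 26.4 and 27.1 CPM with ginseng, and differed by 0.47 ± 0.08 directly and 0.34 ± 0.12 within sets, the latter not called (adjusted p of 0.537 by edgeR). ATF4 targets had SLC7A11 higher and DDIT4 and VLDLR lower of 24, and ASNS, DDIT3 and ATF4 itself differed by -0.11, -0.07 and -0.06, not called, after falling from vehicle with both extracts. Matrix, YAP and TGF-beta targets had 3 of 20 lower with poria: TGFBI at -0.15 ± 0.03, COL1A2 at -0.19 ± 0.05 and COL3A1 at -0.29 ± 0.08. The 2 collagen calls were each lost on leaving out 1 of several libraries, ginseng replicate 1 among them, where the count fell to 1. Against vehicle, poria lowered 14 of the 20 matrix genes and ginseng 7, beside 6.41% and 4.2% of all genes. Of 25 cholesterol synthesis genes, INSIG1 was higher with poria, at 134 to 149 CPM against 116 to 129 CPM and 168 to 173 CPM with vehicle, and this call was also lost on leaving out 1 library, such as ginseng replicate 2.

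Some lists had 1 called member each, beside 1.27% of all genes called. In the early response to growth factors it was PHLDA1 (1 of 20 tested), higher by 0.30 ± 0.04 on the log2 scale. In the lysosome list it was SQSTM1, an autophagy receptor (1 of 24, 0.20 ± 0.04), and in p53 targets GADD45A (1 of 15, 0.28 ± 0.07). In feedback of bone morphogenetic proteins it was SMAD6 (1 of 12, -0.28 ± 0.07), and in the circadian clock BHLHE41 (1 of 16, -0.22 ± 0.05). These are single genes, not results about their lists. Of these 5, PHLDA1 kept the call with any 1 of the 6 libraries left out. No member was called among metallothioneins, interferon response, fatty acid synthesis, LXR targets, heat shock, mitosis, CREB-responsive, nucleolar, ribosomal protein or mitochondrial genome genes. For the 20 mitosis genes the intervals stayed between -0.35 and 0.20, for the 12 heat shock genes between -0.22 and 0.28, and for the 20 ribosomal protein genes between -0.31 and 0.29. A missed call does not show that the extracts act alike in these genes.

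**Figure D5:**
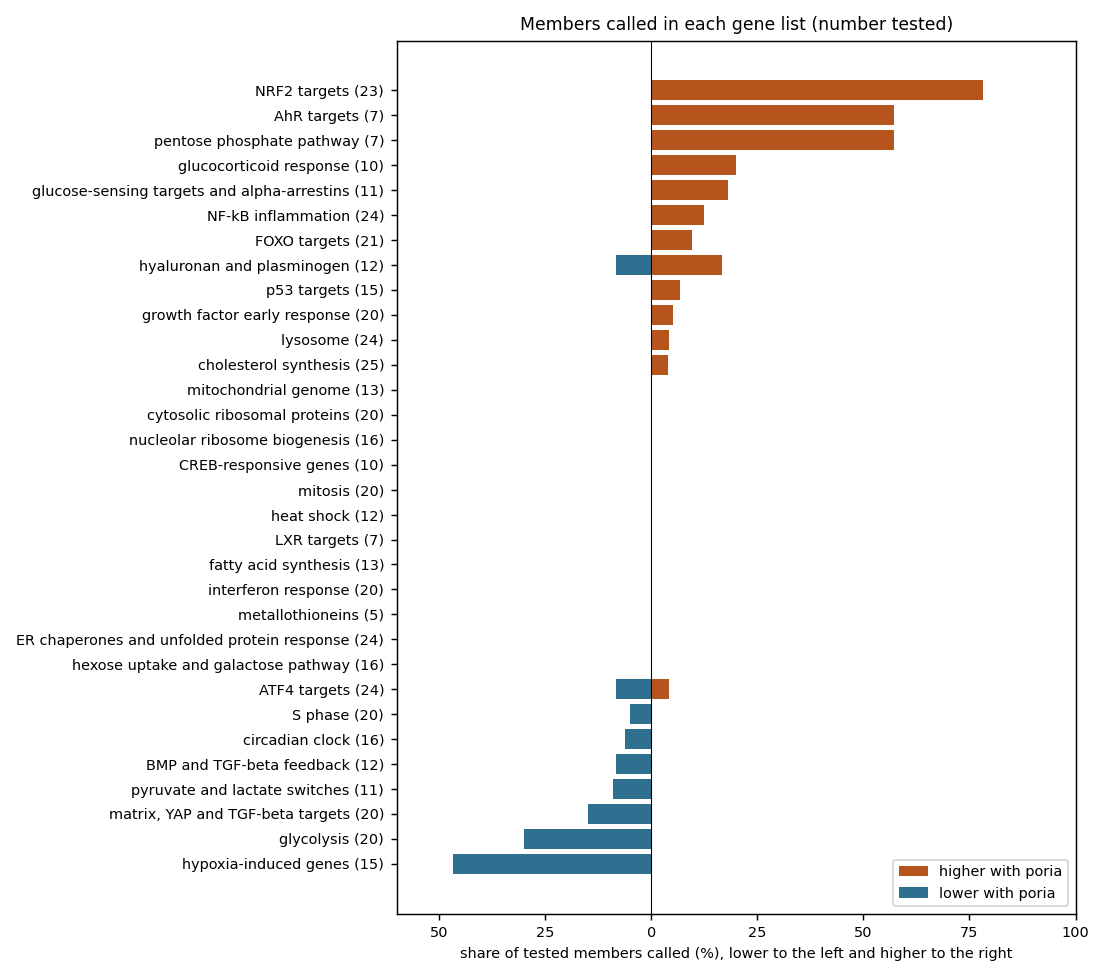
Share of tested members called in the direct comparison (horizontal axis, percent; higher with poria to the right in orange, lower to the left in blue) for 32 gene lists, with the number tested in brackets. NRF2 targets, with 18 of 23, have the longest bar to the right and hypoxia-induced genes, with 7 of 15, the longest to the left; over all genes the shares are 0.686% and 0.58%.

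Fewer genes were called at the lower doses. At 100 µg/mL, 4 of 17919 genes (0.0223%) were called: TXNIP, NQO1 and AKR1C2 higher and CGB7 lower with poria. CGB7, a chorionic gonadotropin subunit with near-identical copies, was at 5.26, 4.88 and 4.98 CPM with poria and 6.66, 8.99 and 7.89 CPM with ginseng. Its difference of -0.63 ± 0.12 had an adjusted p of 0.0217 by edgeR, but at the high dose the difference was -0.14 ± 0.12 and not called. Its medium-dose call was lost on leaving out any 1 of the medium-dose libraries except ginseng replicate 1, and that of AKR1C2 on leaving out ginseng replicate 2. The median NRF2 target stood at 0.11 to 0.20 above the vehicle mean in the 3 poria libraries on the log2 scale, and at -0.02 to 0.01 in the 3 ginseng libraries. At 500 µg/mL the same medians were 0.37 to 0.42 and 0.08 to 0.09, and at 20 µg/mL 0.02 to 0.06 and -0.05 to 0.03. For the hypoxia-induced genes the medians at 500 µg/mL were -0.09 to -0.05 with poria and 0.10 to 0.13 with ginseng. At 20 µg/mL edgeR's test called 0 of 17919 genes (0%) between the extracts, 679 had an unadjusted p under 0.05, which is 3.79% of the genes tested, and DESeq2 called 2.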

How the data were processed

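RNA was sequenced as 100 bp paired reads from MGI directional libraries, per the labels' protocols. The authors deposited expected counts per gene. FastQC 0.11.9, Trim Galore 0.6.5, STAR 2.7.3a, RSEM 1.3.3 and build GRCh38 are named in the submitters' processing notes, while annotation and strand setting are not given in the sources used here. Among the deposited expected counts, 9.48% were not whole (tolerance 1e-06) and were rounded; 219 further columns of the table were not used. Names and coordinates came from GENCODE 29 and a symbol table (57055 of 60675 IDs).

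All 60 libraries, 3 per group in the groups compared, entered 1 edgeR 4.0.16 quasi-likelihood model (R 4.3.3, TMM, filterByExpr, minimum count 10, robust), two-sided, with adjusted p over 17919 genes; ± is the SE and intervals are 95%. Scripts were tested on simulated data. Members and lists were chosen with earlier results of these data known. Named by rule were the 12 largest called differences each way among genes of at least 5 CPM with an informative symbol whose groups did not overlap, up to 4 called members per list with the smallest p, the glucose-sensing list, and the 3 largest each way at the lower doses and within sets; any other named gene was picked with its values in view. Some genes within the lists' counts are not reported here by name. Alternatives were no filter, DESeq2 1.42.0, edgeR's RLE size factors in place of TMM, a replicate block, the compared groups alone and leaving out 1 library. A further one, leaving out 5 libraries that stand apart, was chosen after seeing the data. Replicates within groups differed by more than sampling noise.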

Additional observations from a re-analysis of the deposited data

Results flagged for a closer look

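The within-set difference tests whether the change from low to high dose differs between poria and ginseng, and 31 genes passed it by edgeR's quasi-likelihood test. Of the NRF2 targets, the differences were 0.86 for HMOX1, 0.67 for FTL, 0.59 for SLC7A11, 0.57 for NQO1, 0.47 for OSGIN1, 0.46 for AKR1C1, 0.43 for GCLM, 0.38 for FTH1, 0.37 for TXNRD1, 0.30 for SRXN1, 0.28 for GCLC, 0.28 for TKT and 0.25 for PGD, all on the log2 scale with poria changing more upward. The heme genes ALAS1 and SLC48A1 stood at 0.43 each, and TXNIP at 0.65. Of the secreted proteins and other genes, the values were 0.78 for NPTX1, 0.55 for GREM1, 0.52 for ENPP2, which makes lysophosphatidic acid, 0.51 for LIF, 0.38 for MGLL, a lipase of monoacylglycerols, 0.37 for the noncoding MIR100HG, 0.33 for CDC42EP3, 0.33 for SGK1 and 0.26 for PHLDA1. In the other direction, the values were -0.67 for NEFL, -0.55 for FAM13B, -0.51 for SELENOW, -0.50 for LINC00973, -0.44 for BNIP3 and -0.23 for DCBLD1.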

How the results depend on the processing

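Fitting the compared groups alone called 497 genes between the extracts at the high dose, 27 at the medium dose, 3583 for poria high against vehicle and 2975 for ginseng high against vehicle. Without 5 libraries that stand apart, an alternative chosen after seeing the data, the counts were 432 at the high dose, 14 at the medium dose and 2143 for ginseng against vehicle. With no filter on low counts they were 149 at the medium dose, 103 at the low dose and 126 within sets, and DESeq2 called 14 at the medium and 2 at the low dose. The within-set difference in place of the direct one called 31. Leaving out 1 library gave 115 to 150 at the high dose, 16 to 31 within sets, 1312 to 1536 for poria and 623 to 859 for ginseng against vehicle. The cause was not tested. After each gene's group mean was taken off on the log scale, same-numbered poria and ginseng high-dose libraries correlated at 0.051, 0.008 and 0.015. Differently numbered ones ran from -0.051 to 0.039, and the main fit used no pairing by number. A replicate block called 260 at the high and 8 at the medium dose. Of the 227 genes called at the high dose, 75 were called under every alternative fit; of the 69 named among them, 50 were, and 27 of these within sets too. Small uncalled differences turned sign, with leave-one-out values from -0.119 for ARRDC1, from -0.063 for ARRDC3 and up to 0.02 for MLXIP: ARRDC1 to 0.031 without ginseng replicate 3, 0.017 without poria replicate 1 and 0.092 within sets; ARRDC2 to 0.012 within sets; ARRDC3 to 0.047 without ginseng replicate 2, 0.004 without poria replicate 1 and 0.053 within sets; MLXIP to -0.019 without ginseng replicate 1, -0.0 without poria replicate 2 and -0.033 within sets; and CGB7 to 0.073 within sets. Depth limits calls for genes under 1 CPM, such as MLXIPL.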
